A study of Mus musculus with 2 samples.

Results

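The 41 genes described here mark proliferating cells: 14 act in DNA synthesis (S phase), 24 are called mitotic, and 3, Stmn1, Hmgb2 and H2afx, were not assigned to a phase. Mitotic members act in mitosis or are made for it, but Ccna2, a cyclin of S phase and G2, is counted with them. Their sum is thus not one of mitosis alone. They were given as a list of symbols and all 41 were found once each among the 28692 genes of the deposited count matrices. The S-phase members are the replicative helicase subunits Mcm2, Mcm3, Mcm4, Mcm5, Mcm6 and Mcm7, the sliding clamp Pcna and its partner 2810417H13Rik (Pclaf), the nucleotide supply genes Rrm1, Rrm2, Tyms, Tk1 and Dut, and the licensing inhibitor Gmnn. The mitotic members are Cdk1 and the cyclins Ccna2, Ccnb1 and Ccnb2; the kinases, checkpoint and passenger genes Plk1, Aurka, Aurkb, Bub1, Bub1b and Birc5; Ube2c and Cdc20 of the anaphase-promoting complex; the centromere and kinetochore genes Cenpa, Cenpe and Cenpf; the spindle and cytokinesis genes Kif11, Kif20a, Kif23, Prc1, Nusap1, Tpx2 and Tacc3; and Mki67 and Top2a, which act on chromosome structure.

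The libraries come from CD45+ leukocytes of adipose tissue, taken from adult wild-type (wt) C57BL/6 mice. For 1 week, one group of mice ate chow and the other a ketogenic diet, a diet low in carbohydrate under which the liver makes ketone bodies. Cells inside the tissue had been told apart from blood cells by an intravenous label, and libraries were made with a 10x Genomics protocol in which tags called UMIs (unique molecular identifiers) let every captured RNA molecule be counted once. There is 1 library per diet, so no difference between diets has a replicate check and no test was possible; the labels do not give the number of mice pooled. Brackets give 95% intervals (exact Poisson for sums, exact binomial for shares, exact conditional for ratios); they hold counting error alone, not the spread between mice.

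The chow library held 4545 cells and 21570910 UMIs and the ketogenic library 5614 cells and 26041785 UMIs, with medians of 3469 and 3461.5 UMIs per cell. The authors' deposited table placed 4458 and 5559 of these cells in 13 clusters; 41 cell barcodes occur in both libraries. Ptprc, which encodes CD45, had a UMI in 82.6% of chow and 82.3% of ketogenic cells, while the 5 stromal markers together reached 0.881 and 1.27 CPM (counts scaled to 1000000 UMIs). The 3 endothelial markers reached 11.9 and 20.4 CPM and the 4 adipocyte markers 22.6 and 13.7 CPM. Clusters are called by the cell type whose markers they raise: 0 is ILC2-like (group 2 innate lymphoid cells), 1 NK-like (natural killer cells), 2 T-like, 3 macrophage-like, 5 cDC2-like and 6 cDC1-like (conventional dendritic cells), 7 Treg-like (regulatory T cells), 9 B and plasma-like, 11 γδ T-like and 12 mature DC-like. Cluster 4 raised 6 of 8 T markers, 3 of them among its 10 leading genes, but it was led by the NK receptor genes Klra1 and Klra7 and is left unnamed. Cluster 8, led by Retnla, Fcrls and Lyz1, is unnamed too. Cluster 10 is the cycling cluster. Its 10 leading genes are 2810417H13Rik, Hist1h2ap, Stmn1, Birc5, Ube2c, Top2a, Mki67, Nusap1, Rrm2 and H2afx, 9 of which are among the genes described here.

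Cells entering the cycle first make the genes of DNA replication, many of them through E2F transcription factors, and load the helicase of Mcm subunits on DNA before synthesis starts. Genes of mitosis are made later and are held down in resting cells by a repressor complex that binds a promoter element called the cell cycle genes homology region (CHR), often beside a CCAAT box bound by NF-Y. Leukocytes resident in tissues can divide in place, so these genes can mark dividing cells of several lineages at once.

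The promoters of the members were searched for these letters. RefSeq promoters (GRCm38.p6, 250 bases before to 50 after the start) were matched for 33 of the 41 members; Mcm4, Gmnn, Ccna2, Tpx2, Aurkb, Kif20a, Stmn1 and H2afx were not matched. The CHR letters TTTGAA or TTTAAA, on either strand, occurred in 17 of 20 mitotic promoters and 5 of 12 S-phase promoters, against 27.8% of the 27025 promoters in the table. CCAAT was found in 17 of 20 and 9 of 12, against 37.9%. One of 4 E2F letter strings (TTTGGCGC, TTTCCCGC, TTTGCCGC or TTTCGCGC) was in 5 of 12 S-phase promoters (Mcm3, Mcm5, Mcm6, Mcm7 and Pclaf) and in 1 of 20 mitotic promoters (Cdk1), against 2.32% of all. A match is a description of letters and shows no binding. The 250 bases before the start of the 2 highest and 2 lowest members of the diet comparison in cluster 10 below are given 5′ to 3′ on the gene's strand, with matches to any of these letters in capitals: Mcm2 (chr6:88898781-88899030, minus strand) holds CHR and CCAAT letters and none of the E2F strings, Mcm7 (chr5:138171884-138172133, minus strand, 1 of 2 promoters listed for this gene) holds E2F and CCAAT letters, and Ube2c (chr2:164769679-164769928, plus strand) and Cenpf (chr1:189688087-189688336, minus strand) hold CHR and CCAAT letters.
Mcm2: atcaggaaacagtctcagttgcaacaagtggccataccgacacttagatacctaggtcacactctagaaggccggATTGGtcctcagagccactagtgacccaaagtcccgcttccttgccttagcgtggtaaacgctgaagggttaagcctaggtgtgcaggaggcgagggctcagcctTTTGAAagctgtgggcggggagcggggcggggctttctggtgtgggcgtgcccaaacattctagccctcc
Mcm7: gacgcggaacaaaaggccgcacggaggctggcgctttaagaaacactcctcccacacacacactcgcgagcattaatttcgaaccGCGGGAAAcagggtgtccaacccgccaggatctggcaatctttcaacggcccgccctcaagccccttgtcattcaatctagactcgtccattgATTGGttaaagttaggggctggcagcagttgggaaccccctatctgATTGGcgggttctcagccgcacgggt
Ube2c: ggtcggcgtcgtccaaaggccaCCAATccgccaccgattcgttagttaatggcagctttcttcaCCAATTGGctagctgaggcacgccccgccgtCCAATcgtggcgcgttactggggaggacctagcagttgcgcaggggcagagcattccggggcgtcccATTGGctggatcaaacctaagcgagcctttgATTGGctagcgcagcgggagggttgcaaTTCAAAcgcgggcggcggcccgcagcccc
Cenpf: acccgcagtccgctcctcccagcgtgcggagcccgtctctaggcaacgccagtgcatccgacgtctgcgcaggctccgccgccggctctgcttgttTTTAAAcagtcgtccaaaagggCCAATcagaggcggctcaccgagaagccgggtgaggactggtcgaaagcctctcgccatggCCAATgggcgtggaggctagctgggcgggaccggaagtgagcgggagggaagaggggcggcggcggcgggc

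Cluster 10 was small but held most of the mitotic transcripts. It had 142 chow and 154 ketogenic cells, 2.95% of the clustered cells with 6.30% of their UMIs, and its cells were deep, with a median of 9853 UMIs against 3429 in all other clusters. Of the UMIs of the 24 mitotic members, 71.5% lay in cluster 10, with single genes from 35.9% (Cenpa) to 90.7% (Nusap1) and a median of 77.7%. Of the UMIs of the 14 S-phase members, 36.4% lay there, from 16.7% (Mcm4) to 83.2% (2810417H13Rik), with a median of 29.7%. Since the clusters were made from the expression of these cells, their concentration in cluster 10 is a description and was not tested. Altogether 28 of the 41 members had at least 50% of their UMIs in cluster 10, as had 0.927% of the 10361 genes with at least 100 UMIs, whose median was 6.36%.

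The highest shares belonged to Nusap1 (90.7% [88.3 to 92.7]), a spindle microtubule binder, Ccna2 (86.7%), the cyclin of S phase and G2, Ube2c (86.0%), the ubiquitin donor of the anaphase-promoting complex, Bub1 (86.0%), a spindle checkpoint kinase, and Birc5 (83.4%), a passenger protein of the dividing chromosome. The lowest belonged to Mcm4 (16.7% [14.4 to 19.3]), Mcm2 (19.6%), Mcm6 (19.8%), Pcna (20%) and Mcm3 (24.4%), parts of the replication machinery. The classes overlapped: the S-phase members 2810417H13Rik, Rrm2 (75.7%), a subunit of ribonucleotide reductase, and Tk1 (70.3%), thymidine kinase, lay among the mitotic ones, and Cenpa (35.9%), the centromeric histone H3 variant, and Kif23 (54.2%), a kinesin of the central spindle, lay lowest among the mitotic members. Of the members with no phase, Stmn1, a tubulin binder, had 67.2%, H2afx, a histone H2A variant, 51.7%, and Hmgb2, a DNA-bending protein, 37.9%. With both libraries pooled, 16 of the 41 members were highest outside cluster 10 in cluster 9, the B and plasma-like cells. This rests on the ketogenic library, where 13 members were highest there, against 0 in the chow library. In the chow library 14 were highest in the Treg-like cluster 7, but 6 without the cell with most mitotic UMIs of each cluster, when 13 were highest in the T-like cluster 2.

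**Figure D1:**
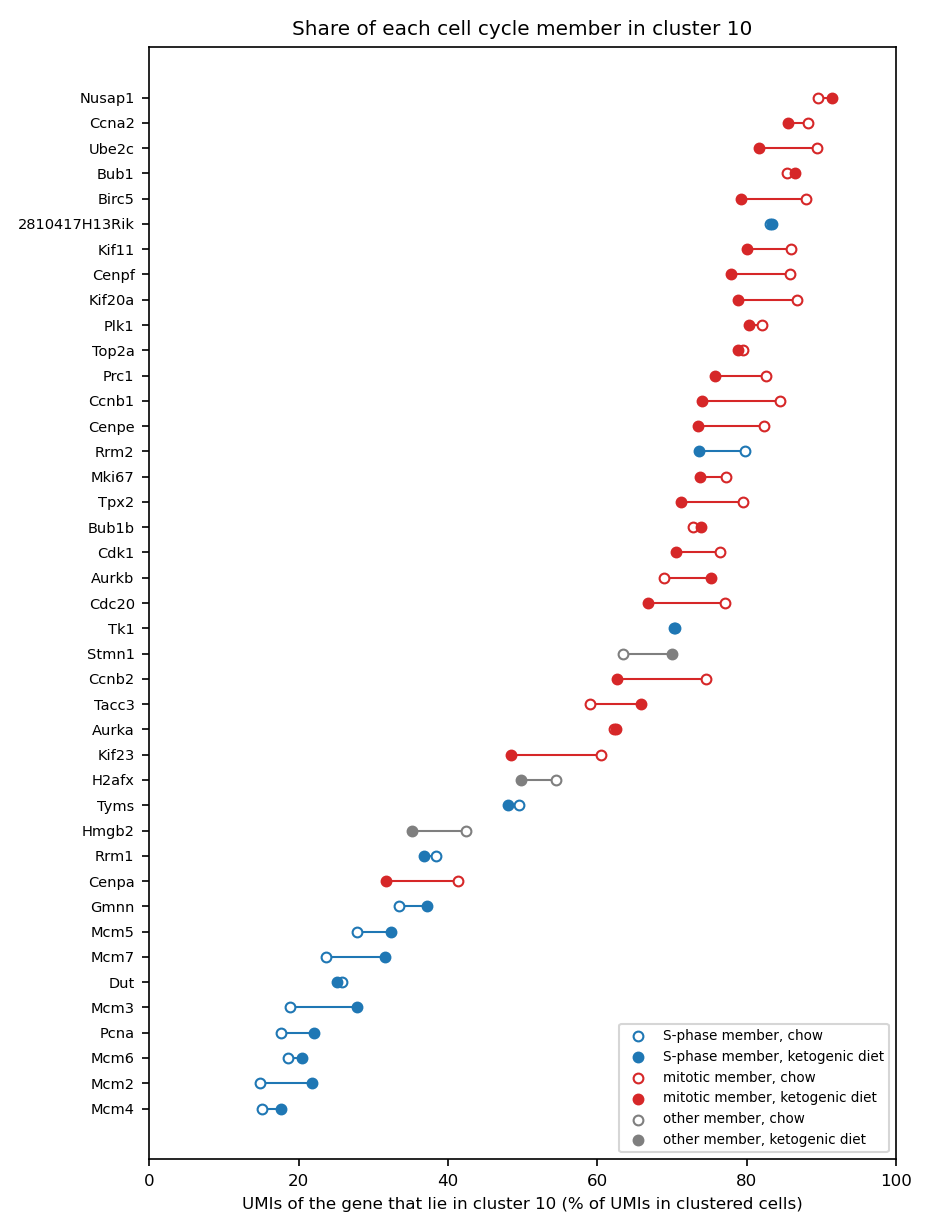
Share of each member's UMIs that lies in cluster 10 (x axis, % of its UMIs in clustered cells) for the 41 members, ordered by the share in both libraries together; open points are the chow library and filled points the ketogenic library, coloured by class. Most mitotic members lie above 60%, and Mcm4, Mcm2, Mcm6, Pcna and Mcm3 lie lowest, between 14.8% and 27.8%.

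Among genes outside every list used here, those most concentrated in cluster 10 were Mxd3 (89.9%), Pbk (87.7%), Esco2 (87.6%), Melk (84.5%), Kif4 (84%), Aspm (84.0%), Sgol1 (83.6%), Ska1 (83.4%), Neil3 (81.9%) and Spag5 (81.8%), each over 100 to 302 UMIs. Kif4, Aspm, Sgol1, Ska1 and Spag5 are known for spindle, chromosome or cohesion functions in mitosis. Of the other cell cycle genes listed beside the members, 7 of 32 S-phase genes and 16 of 33 G2 and mitotic genes with at least 100 UMIs had at least 50% of their UMIs in cluster 10, with medians of 26.7% and 49.1%. None of 22 G1 regulators had, and their median was 8.23%.

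Outside cluster 10 there were more S-phase UMIs per mitotic UMI than inside it. In cluster 10 there were 0.538 S-phase UMIs per mitotic UMI [0.515 to 0.563] in the chow and 0.799 [0.770 to 0.830] in the ketogenic library. In all other clusters together the ratio was 2.97 [2.82 to 3.13] and 2.94 [2.82 to 3.06]. The size of this ratio depends on which genes are summed, so it is read only between groups of cells. Over the 12 other clusters it ranged from 1.08 (cluster 7) to 5.92 (cluster 4) under chow and from 0.6 (cluster 8, 47 cells) to 6.85 (cluster 4) under the ketogenic diet. Without the cell with most mitotic UMIs of each library the ratio was 2.73 in chow cluster 7, whose low value thus rested on 1 cell, and 0.968 in ketogenic cluster 8, still the lowest of the 12. Cluster 10 then stood at 0.549 and 0.805.

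**Figure D2:**
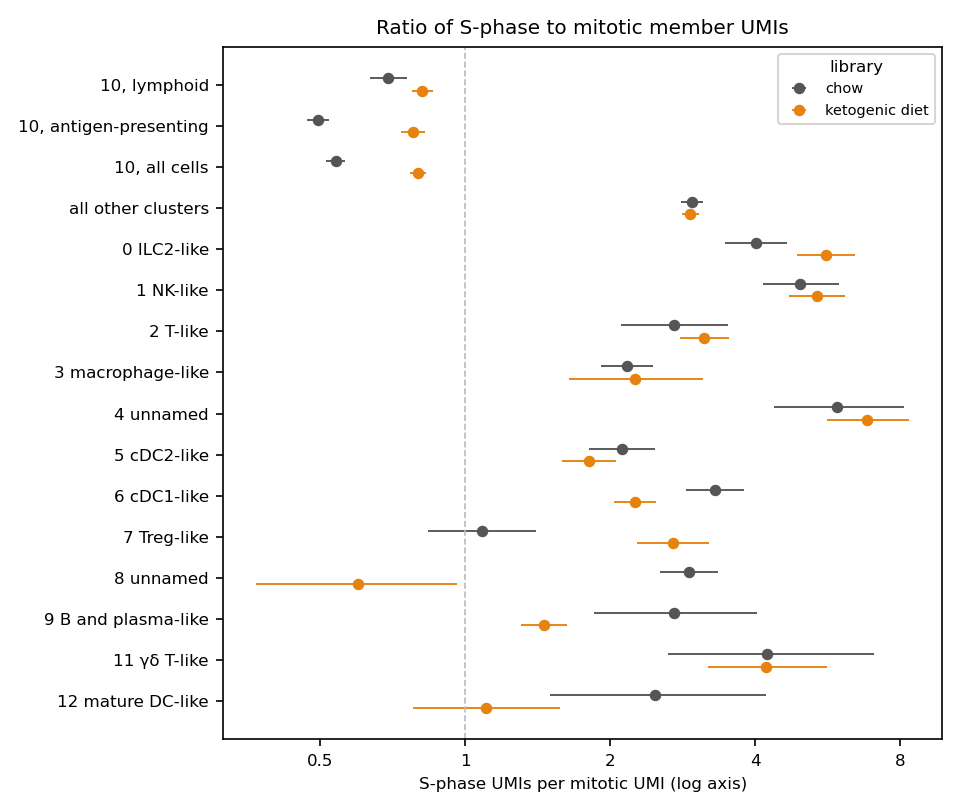
S-phase UMIs per mitotic UMI (x axis, log scale) in cluster 10, its lymphoid and antigen-presenting cells, all other clusters together and each other cluster; points are libraries and bars 95% counting intervals. Cluster 10 lies below 1 in both libraries, and most other clusters lie at 2 or more.

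Within cluster 10 the S-phase members were higher under the ketogenic diet and the mitotic sum slightly lower. The S-phase sum was 2224 CPM [2146 to 2304] in the chow and 3136 CPM [3049 to 3224] in the ketogenic library, a ratio of 1.41 [1.35 to 1.48]. The mitotic sum was 4130.4 CPM [4024 to 4239] and 3923 CPM [3827 to 4022], a ratio of 0.95 [0.916 to 0.985]. All 14 S-phase members were higher in the ketogenic library, with a median log2 ratio of 0.71, while 13 of 24 mitotic members were higher and 11 lower, with a median of 0.05. The median over all genes tested in cluster 10 was 0.07. By the 2-fold mark, 3 of 41 members were higher and 0 lower; over the 8071 genes with at least 20 UMIs in cluster 10, 12% passed 2-fold in either direction, 6.63% higher and 5.38% lower, so the members' count is near that of genes at large.

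Summed by role, the helicase subunits stood farthest apart between the diets. Mcm2 had 29.7 CPM [21.3 to 40.3] in the chow and 84.0 CPM [70.4 to 99.5] in the ketogenic library (log2 ratio 1.49). Mcm7 had 74.0 and 156 CPM (1.07) and Mcm3 68.2 and 141 CPM (1.04). These are the 3 members past 2-fold. With means of per-cell CPM Mcm2 alone passed (1.14), and Mcm3 (0.99) and Mcm7 (0.95) lay just under. Mcm6 had 76.2 and 144 CPM (0.91), Mcm4 36.3 and 64.0 CPM (0.81) and Mcm5 82.7 and 137 CPM (0.72). The 6 subunits form 1 ring, and the sum of their UMIs was 367 CPM against 725 CPM, a ratio of 1.98 [1.78 to 2.20].

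The sums of the other S-phase roles differed less, although Tk1 stood above the subunit Mcm5. The 5 nucleotide supply genes summed to 715 CPM in the chow and 1099.6 CPM in the ketogenic library, a ratio of 1.54 [1.42 to 1.67]. Among them Tk1, which salvages thymidine, had 91.4 and 157 CPM (log2 ratio 0.78), and Rrm2 192 and 310.5 CPM (0.69). Tyms, which makes thymidylate, had log2 0.57, Dut, which removes dUTP, 0.57 and Rrm1 0.49. Gmnn, which blocks repeated licensing, stood at 136 and 185 CPM (0.45). The sliding clamp Pcna stood at 252 and 319.9 CPM (0.34), and its partner 2810417H13Rik at 754 and 806 CPM (0.10), the smallest difference among S-phase members.

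Mitotic members lay on both sides of 0. Ube2c had 561 CPM [523 to 602] in the chow and 346 CPM [318 to 376] in the ketogenic library, a log2 ratio of -0.70 and the lowest of all 41. Cenpf, a kinetochore protein made in G2, had 172 and 124 CPM (-0.47), Kif23 128 and 97.8 CPM (-0.38), Bub1b, a checkpoint kinase, 66.0 and 53.3 CPM (-0.31) and Bub1 34.1 and 28.2 CPM (-0.27). At the other end Cdc20, the activator of the anaphase-promoting complex, had 73.3 and 107 CPM (0.55), and Kif20a, a cytokinesis kinesin, 33.4 and 48.9 CPM (0.55). Cdk1, the kinase that drives mitosis, had 134 and 192 CPM (0.51), and Tacc3, a spindle protein, 89.9 and 127 CPM (0.50). Cdk1 and the 3 cyclins summed to 548 and 677 CPM, a ratio of 1.24 [1.13 to 1.36], whereas Ube2c and Cdc20 together gave 0.714 [0.647 to 0.789] and the 3 centromere and kinetochore genes 0.844 [0.764 to 0.933]. The proliferation marker Mki67 stood at 303 and 267 CPM (-0.18) and Top2a, topoisomerase II alpha, at 487 and 475 CPM (-0.03). Stmn1, Hmgb2 and H2afx were each higher under the ketogenic diet, by log2 0.37, 0.23 and 0.21.

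The lineage of the cycling cells differed between the libraries. Cells of cluster 10 were called lymphoid or antigen-presenting by their UMIs of 15 lymphoid and 13 antigen-presenting marker genes, none of them a member. Lymphoid cells made up 39 of 142 under chow (27.5% [20.3 to 35.6]) and 91 of 154 under the ketogenic diet (59.1% [50.9 to 66.9]), and the rest were antigen-presenting. Cells of the antigen-presenting lineage were deeper, with medians of 10718 and 14455 UMIs against 5329 and 7949 in lymphoid cells, and both lineages were deeper in the ketogenic library. Members also differed between lineages: under chow the S-phase sum was 3614 CPM in lymphoid and 1933 CPM in antigen-presenting cells, and the mitotic sum 5213 and 3904 CPM. The part of lineage mix and depth in the values of the whole cluster was not tested, and the values within each lineage follow.

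In antigen-presenting cells of cluster 10 the S-phase sum was 1933 CPM [1853 to 2015] in the chow and 2605 CPM [2497 to 2717] in the ketogenic library, a ratio of 1.35 [1.27 to 1.43]. The mitotic sum was 3904 CPM and 3338 CPM, a ratio of 0.855 [0.815 to 0.897]. S-phase UMIs per mitotic UMI were 0.495 [0.470 to 0.521] and 0.780 [0.738 to 0.826]. All 14 S-phase members were again higher under the ketogenic diet (median log2 ratio 0.58, against -0.02 over all genes tested), and 13 of 24 mitotic members were lower (median -0.18). Past 2-fold were Mcm2, with 21.1 and 55.8 CPM (1.39), and Mcm7, with 65.8 and 137 CPM (1.05), both higher, and no member lower. With means of per-cell CPM only Mcm2 passed (1.38). Of 6696 genes 8.35% passed, 2.78% higher and 5.57% lower.

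The next highest in antigen-presenting cells were Mcm6 (log2 ratio 0.85), Mcm3 (0.73) and Tk1 (0.71), and the lowest were Ube2c, with 529 and 287 CPM (-0.88), Cenpa, with 318 and 215 CPM (-0.56), Cenpf (-0.53), Bub1b (-0.50) and Mki67, with 298 and 219 CPM (-0.45). The helicase sum was 332 and 577 CPM, a ratio of 1.74 [1.52 to 2.0], and that of the clamp genes 889 and 1034 CPM, a ratio of 1.16 [1.06 to 1.27].

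In lymphoid cells of cluster 10 the helicase genes were again higher under the ketogenic diet, while no difference was detectable in the summed S-phase UMIs. The S-phase sum was 3614 CPM [3377 to 3863] and 3729 CPM [3592 to 3869], a ratio of 1.03 [0.956 to 1.11], so no difference was detectable at this depth, and the ratio was 0.941 when lymphoid cells were called by 3 times as many lymphoid as antigen-presenting UMIs. The mitotic sum was 5213 and 4578 CPM, a ratio of 0.878 [0.823 to 0.938]. S-phase UMIs per mitotic UMI were 0.693 [0.635 to 0.757] and 0.815 [0.775 to 0.856]. The helicase sum stood at 536 and 890.3 CPM, a ratio of 1.66 [1.37 to 2.02], and the clamp genes at 1570.3 and 1229 CPM, a ratio of 0.783 [0.694 to 0.885].

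Of the S-phase members 10 of 14 were higher in lymphoid cells (median log2 ratio 0.35, against 0.05 over all genes tested), among them all 6 helicase subunits, and 4 lower: 2810417H13Rik, with 1068 and 817 CPM (log2 ratio -0.39), Tyms (-0.31), Pcna (-0.29) and Rrm1 (-0.07). The highest members were Mcm3, with 96.3 and 182 CPM (0.89), Mcm5 (0.83), Ccnb1, a mitotic cyclin (0.82), Mcm4 (0.76) and Mcm2 (0.67). The lowest were Cenpf, with 268 and 146 CPM (-0.88), Ube2c, with 716 and 412 CPM (-0.80), Bub1 (-0.68), Plk1, a mitotic kinase (-0.63), and Birc5, with 737 and 510 CPM (-0.53). No member passed 2-fold, where 12.9% of 5140 genes did, 7.74% higher and 5.12% lower; without the top cell of each member, Ccnb1, Mcm3 and Mcm4 passed. The chow side holds 39 cells and 238807 UMIs, so intervals are wide: that of Ccnb1 spans ratios of 1.04 to 3.39. That the lineages differ in the diet ratio of the S-phase sum (1.35 and 1.03) was not tested, since 1 library per diet leaves no replicate for it.

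**Figure D3:**
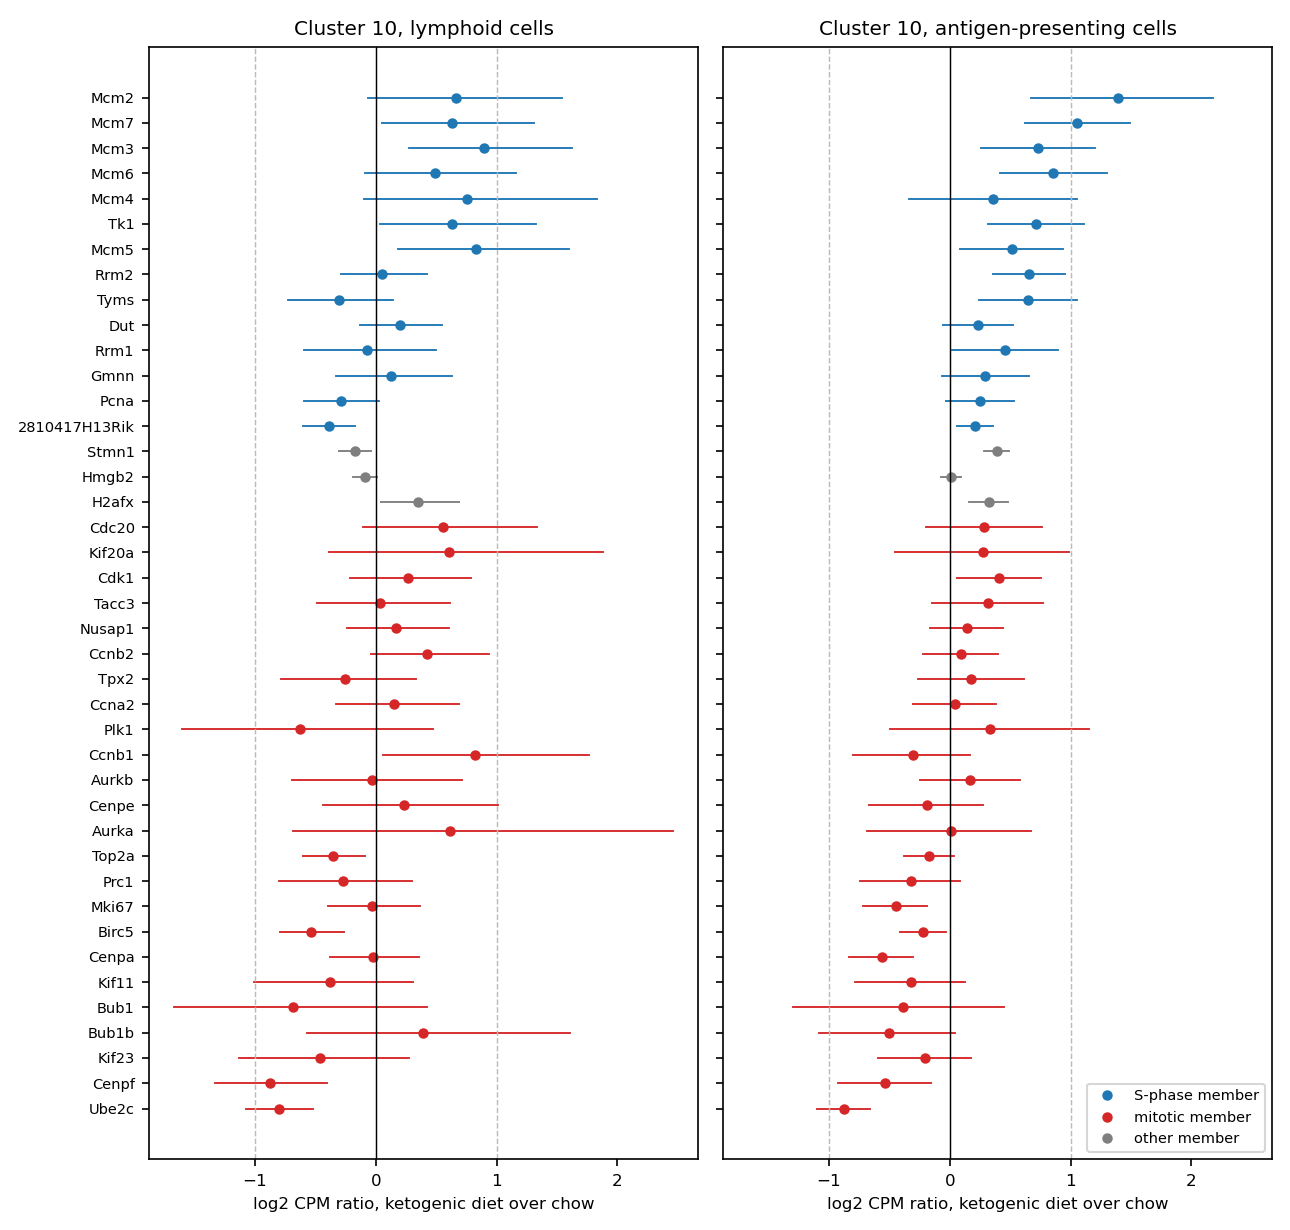
Difference between diets (x axis, log2 of ketogenic over chow CPM) for each of the 41 members in the lymphoid (left) and antigen-presenting (right) cells of cluster 10; bars are 95% counting intervals, colours give the class, and dashed lines mark 2-fold. The 6 Mcm genes lie right of 0 in both panels, and Ube2c and Cenpf lie left of 0 in both.

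Cells of cluster 10 were also assigned to the other cluster whose profile was most similar, with cell cycle genes left out. The cDC1-like group was the largest, with 53 chow and 37 ketogenic cells. Its S-phase sum was 1934 and 2603 CPM, its mitotic sum 3644 and 2812 CPM, and its ratio of the classes 0.531 [0.494 to 0.570] and 0.926 [0.859 to 0.998]. The cDC2-like group (30 and 20 cells) gave ratios of 0.399 and 0.594, and the T-like group (12 and 34 cells) 0.663 and 0.957. The NK-like group (6 and 27 cells) gave 0.560 and 0.540, the ILC2-like group (12 and 7 cells) 0.690 and 0.920. These groups did not all move one way. The ratio was higher under the ketogenic diet in the cDC1-like, cDC2-like, T-like and ILC2-like groups, and no difference was detectable in the NK-like group. Of the remaining groups, the one most like cluster 4 (2 and 14 cells) gave 0.568 and 1.36. The group most like cluster 8 (18 and 2 cells) gave 0.520 and 0.147 and the γδ T-like group (4 and 5 cells) 1.79 and 0.886. Both were lower in the few ketogenic cells. The Treg-like group (4 and 4 cells) gave 0.836 and 0.631, with no difference detectable. Sums over so few cells can rest on single cells, and the counting intervals do not hold the spread between cells.

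**Figure D4:**
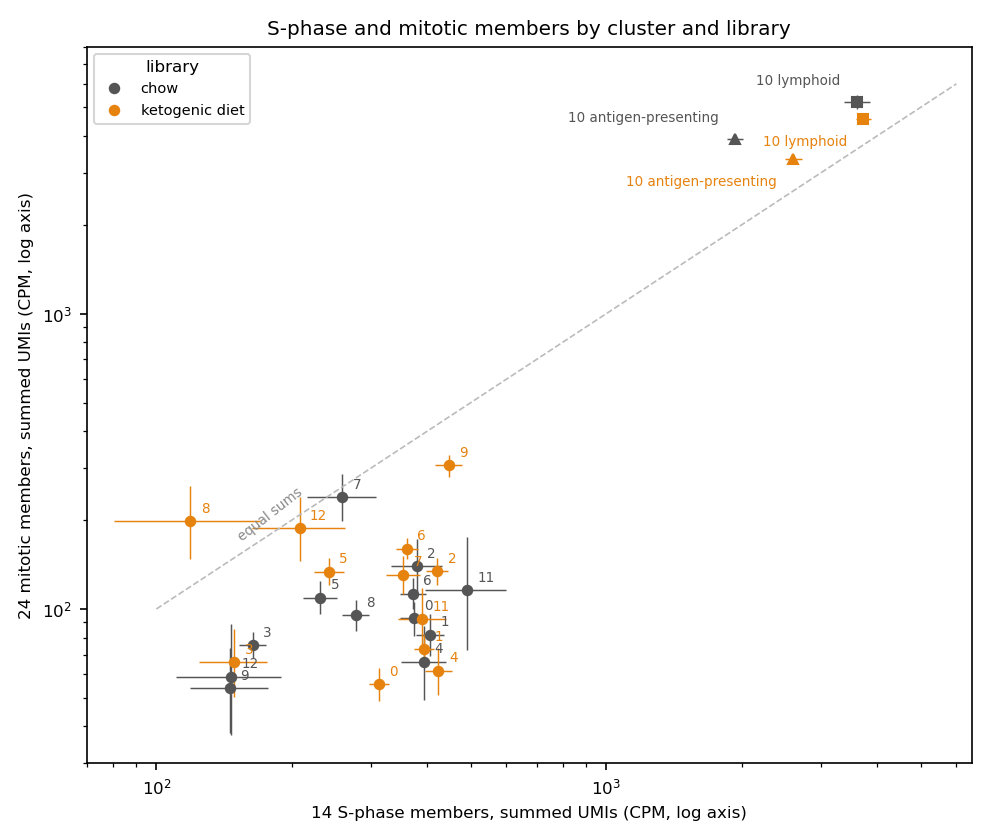
Summed CPM of the 14 S-phase members (x axis, log scale) against the 24 mitotic members (y axis, log scale) for each cluster (numbered points) and for the lymphoid (squares) and antigen-presenting (triangles) cells of cluster 10, in each library; bars are 95% Poisson intervals and the dashed line marks equal sums. Both lineages of cluster 10 lie at or above 1933 CPM for the S-phase members and the other clusters at or below 489.8 CPM.

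B cells are lymphocytes that present antigen, and the B and plasma-like cluster 9 is counted here with the antigen-presenting cells, and clusters 0, 1, 2, 4, 7 and 11 with the lymphoid cells. Set against all cells grouped this way, no difference in the share of cycling cells was detectable at this depth. Of lymphoid cells, 39 of 2341 (1.67% [1.19 to 2.27]) under chow and 91 of 4297 (2.12% [1.71 to 2.59]) under the ketogenic diet were in cluster 10, a ratio of 1.27 [0.865 to 1.90], which was 0.979 with the same minimum of 2048 UMIs per cell in both libraries. Of antigen-presenting cells, 103 of 2117 (4.87% [3.99 to 5.87]) and 63 of 1262 (4.99% [3.86 to 6.34]) were, a ratio of 1.03 [0.738 to 1.42]. Without cluster 9 and the 4 ketogenic cycling cells most like it, the antigen-presenting shares were 5.06% and 5.82%, a ratio of 1.15 [0.821 to 1.60], and with them counted as lymphoid the lymphoid ratio was 1.30 [0.886 to 1.94]. The cDC1-like cells had the highest share, 14.7% [11.2 to 18.8] in the chow and 9.44% [6.73 to 12.8] in the ketogenic library, a ratio of 0.641 [0.410 to 0.994].

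Other groups went in different directions. NK-like cells had 0.822% (6 cells) and 2.48% (27 cells), a ratio of 3.02 [1.22 to 8.94]. ILC2-like cells had 1.39% (12 cells) and 0.532% (7 cells), a ratio of 0.384 [0.128 to 1.06]. cDC2-like cells had 8.02% and 5.29%, T-like cells 4.84% and 3.98%, and γδ T-like cells 6.35% (4 cells) and 2.86% (5 cells), with intervals of the ratio that include 1. Only 1 cycling cell was most like the macrophage-like cells under chow (0.116%), and 0 beside 145 cells under the ketogenic diet, which allows up to 2.07% at a limit of 3 cells (exact binomial upper bound 2.51%). No mature DC-like cell was assigned in either library, of 60 and 49 cells, which allows up to 5% and 6.12% at the same limit (exact upper bounds 5.96% and 7.25%). These shares rest on a cluster that the genes described mark, and its cells are deeper than the rest.

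**Figure D5:**
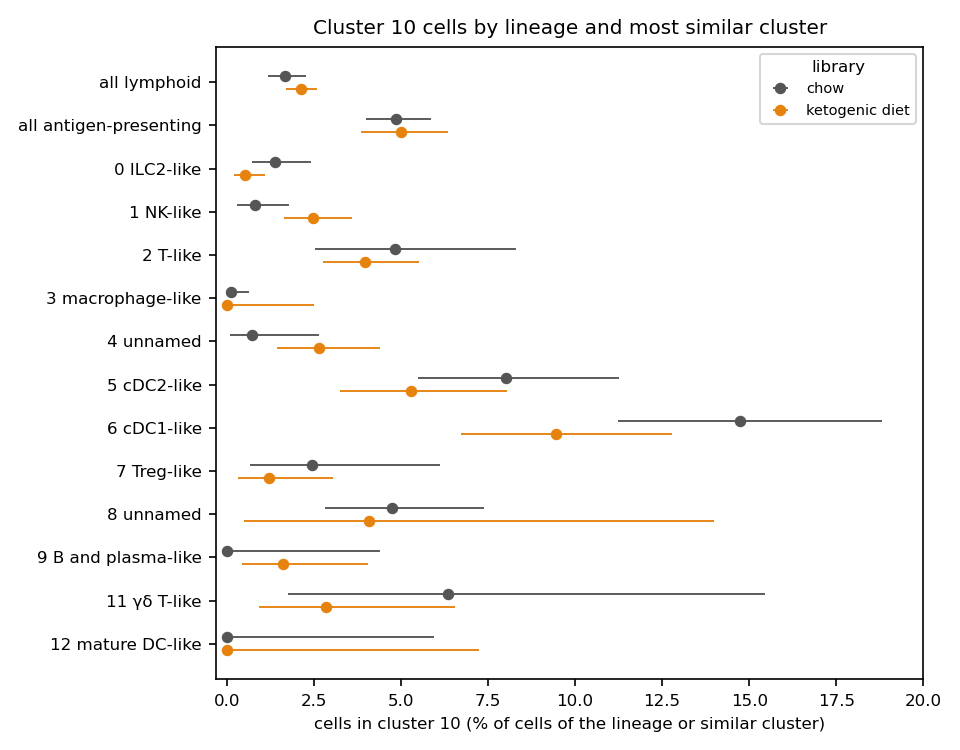
Cells of cluster 10 as a share of all clustered cells of their lineage or of their most similar cluster (x axis, %), by library; bars are 95% exact binomial intervals. The cDC1-like cells lie highest in both libraries, at 14.7% and 9.44%.

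Single cells of cluster 10 were compared after each cell was thinned to 1000 UMIs. Values are those expected over random draws, with numbers of cells rounded. At least 3 mitotic UMIs were then found in 69.0% [60.7 to 76.5] of chow and 59.7% [51.5 to 67.6] of ketogenic cells, and in 0.139% and 0.259% of cells of all other clusters. Mature DC-like cells, outside cluster 10, had 0 of 60 and 1 of 49 such cells, the latter with 51 mitotic UMIs. Median depths before thinning were 9720.5 and 10049 UMIs in cluster 10, 3418 and 3431 in the other clusters, and 6306 and 6808 in mature DC-like cells; unthinned shares were 99.3% and 97.4%, 2.57% and 2.87%, and 0% and 4.08%.

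By the same mark of 3 UMIs, cells with both classes made up an expected 23.5% of cluster 10 in the chow and 27.8% in the ketogenic library, and cells with neither 14.5% and 13.9%. At a mark of 2 UMIs these shares were 42.7% and 46.7% for both and 4.45% and 4.54% for neither, so they depend on the mark. Cells with S-phase UMIs alone made up 16.4% in the chow and 26.4% in the ketogenic library, and those with mitotic UMIs alone 45.5% and 31.9%. Without thinning, 127 of 142 and 138 of 154 cells had both.

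Other genes of the cycle, from lists chosen with earlier results of these data known, showed the same order of classes in cluster 10. They were counted in the same 2 libraries, so they are no separate check. Of 36 other S-phase genes 33 were higher under the ketogenic diet (median log2 ratio 0.49), and 6 of them passed 2-fold, against the 6.63% higher and 5.38% lower among all genes of cluster 10. The highest were Ung, with 7.25 and 30.1 CPM (2.0), a glycosylase that removes uracil from DNA, Cdca7, with 9.43 and 38.3 CPM (1.98), and Prim1, with 25.4 and 77.2 CPM (1.59), a primase subunit. The lowest were Brip1 (-0.07), Pold3 (-0.14) and E2f8 (-0.17). Of 38 other G2 and mitotic genes 19 were higher and 19 lower (median -0.02), and none passed 2-fold. Their highest were Cdca2 (0.77), Ect2 (0.56) and Tubb4b (0.47), and their lowest G2e3 (-0.53), Ckap5 (-0.56) and Ckap2l (-0.58). In lymphoid cells alone 18 of 30 other S-phase genes were higher (median 0.13), and in antigen-presenting cells 31 of 35 (median 0.50).

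Of 22 G1 regulators 14 were higher in cluster 10 under the ketogenic diet (median log2 ratio 0.58, against 0.21 in its lymphoid and 0.27 in its antigen-presenting cells alone) and 2 passed 2-fold: Ccnd2, with 84.1 and 198 CPM (1.23), a D-type cyclin, and Cdkn2a, with 6.53 and 15.1 CPM (1.16), an inhibitor of its kinases, a count near the 6.63% higher among all genes. The third highest was Rbl2 (0.99). Ccnd3, with 136 and 262 CPM, stood at 0.94. The lowest were Cdkn1a, with 469 and 267 CPM (-0.81), an inhibitor of cyclin-dependent kinases, Ccnd1, with 61.7 and 49.6 CPM (-0.31), and Rb1 (-0.25). Cdkn1b stood at 71.8 and 64.0 CPM (-0.17). These values are of the whole cluster. In its antigen-presenting cells 0 of 20 G1 regulators with enough UMIs passed 2-fold (log2 ratios from -0.50 to 0.78), against 8.35% of all genes. In its lymphoid cells 2 of 20 passed higher and 1 lower (from -1.38 to 2.04), against 7.74% and 5.12% of all genes. Levels of the D-type cyclins also differed between clusters outside cluster 10. Ccnd1 reached 162 and 191 CPM in cDC2-like and 91.8 and 101 CPM in cDC1-like cells, and 0 to 5.89 CPM in the chow and 2.50 to 3.61 CPM in the ketogenic library over clusters 0, 1, 2 and 4. Ccnd2 stood at 502 to 612 CPM under chow and 597 to 733 CPM under the ketogenic diet in clusters 0, 1, 2, 4 and 7, and at 75.8 and 67.5 CPM in cDC1-like cells. Ccnd3 ranged from 35.4 CPM (cluster 9) to 348 CPM (NK-like) under chow and from 65.5 CPM (cluster 9) to 381 CPM (NK-like) under the ketogenic diet. The lineage mix of cluster 10 also differed between the libraries, and its part in the values of these genes there was not tested.

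Outside cluster 10 both classes were higher in the ketogenic library, and this did not remain when clusters were given equal weight in both libraries. The S-phase sum was 279.9 CPM [273 to 287] and 349 CPM [342 to 357], a ratio of 1.25 [1.21 to 1.29], and the mitotic sum 94.3 and 119 CPM, a ratio of 1.26 [1.19 to 1.34]. With each cluster weighted by its mean share of cells over the libraries, the S-phase sums were 330.0 and 325 CPM (ratio 0.984) and the mitotic sums 100.4 and 102 CPM (ratio 1.02). Of the 40 members with at least 20 UMIs 4 passed 2-fold, all higher: Kif20a, with 7 and 21 UMIs (log2 ratio 1.24), Cdc20 (1.21), Rrm2, with 3.36 and 7.29 CPM (1.11), and Ccnb2, with 4.21 and 8.61 CPM (1.03). Rrm2 rested on 1 cell: without the cell with most of its UMIs in each library it had 65 and 140 UMIs (0.82) and did not pass, while the other 3 did. With means of per-cell CPM none of the 4 passed, and Bub1b alone did, lower under the ketogenic diet (-1.20). Over 12545 genes 13.8% passed, 7.18% higher and 6.63% lower. Bub1, with 8 and 7 UMIs, was below the minimum. The fifth highest was Ccnb1 (0.98), and the lowest were Bub1b (-0.46), Aurkb, a mitotic kinase (-0.43), Pcna, with 81.6 and 74.0 CPM (-0.14), Stmn1 (-0.13) and Nusap1 and Aurka (both -0.07).

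Single clusters outside cluster 10 held few dividing cells, and some of their sums rested on 1 cell. In the B and plasma-like cluster 9 the mitotic sum was 53.8 CPM [38.1 to 73.9] in 82 chow cells and 306 CPM [281 to 333] in 245 ketogenic cells, a ratio of 5.69 [4.09 to 8.13]. Of the 538 ketogenic UMIs 115 came from 1 cell, and without the top cell of each library the ratio was 5.03 [3.55 to 7.37]. Still, 14 of the 245 ketogenic cells, those with at least 3 mitotic UMIs, held 82.2% of these UMIs. The S-phase sum there was 146 and 446 CPM (ratio 3.06), and the 3 members with no phase gave a ratio of 4.34. The cluster holds both B-like and plasma-like cells, and the part of their mix was not tested. In the Treg-like cluster 7 the S-phase sum was 259 and 353 CPM, a ratio of 1.37 [1.12 to 1.67]. Its mitotic sum was 239 and 131 CPM, but 74 of 119 chow UMIs came from 1 cell, and without the top cells the values were 94.6 and 116 CPM (ratio 1.23 [0.878 to 1.75]). In the mature DC-like cluster 12 it was 59.1 and 188 CPM, with 51 of 65 ketogenic UMIs in 1 cell, and 54.9 and 42.1 CPM without the top cells. Cluster 8 (362 and 47 cells) had S-phase sums of 278 and 119 CPM, a ratio of 0.429 [0.287 to 0.617], the lowest among the clusters, and mitotic sums of 95.1 and 198 CPM, a ratio of 2.09 [1.51 to 2.83] that was 1.40 [0.934 to 2.04] without the top cells.

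The cDC1-like cluster 6 differed in the mitotic members, while no difference was detectable in the S-phase ones. Its mitotic sum was 113 CPM [99.8 to 127] and 160.2 CPM [147 to 174], a ratio of 1.42 [1.23 to 1.65], and its S-phase sum 372 and 361 CPM, a ratio of 0.970 [0.890 to 1.06]. Within it Ccnb2 stood at 9.02 and 22.4 CPM and Cenpa at 36.1 and 48.0 CPM. Its ketogenic cells were deeper, with a median of 9922 UMIs against 7906. The ILC2-like cluster 0 had the opposite order, with a mitotic sum of 92.9 and 55.7 CPM, a ratio of 0.600 [0.498 to 0.723], and an S-phase sum of 373 and 313 CPM, a ratio of 0.838 [0.770 to 0.913]. The 13 antigen-presenting lineage markers, all detected in cluster 0 in both libraries, moved in the same direction: their sum there was 5008 and 2467 CPM, with medians of 11 and 6 UMIs per cell (0 to 855 over all its cells), at median depths of 2610.5 and 3133 UMIs. Their part in the lower sums was not tested. In cluster 0 Stmn1 stood at 85.8 and 28.4 CPM and 2810417H13Rik at 10.9 and 2.06 CPM. For both clusters the ratio of the mitotic sums kept its direction without the top cells, at 1.40 and 0.639. The NK-like cluster 1 had mitotic sums of 81.8 and 73.2 CPM, a ratio of 0.895 [0.729 to 1.10].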

How the data were processed

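The 2 single-cell libraries were analysed, 1 per diet, grouped by the treatment label. The authors' deposited matrices hold raw counts of UMIs per gene and cell, not normalised, per the file headers and whole-number values; the submitters' processing notes name mm10, Cell Ranger and Seurat, with no version or role. The deposited cluster table gives other values per cell, namely a cluster at resolution 0.5; all cells left out of it had over 5% mitochondrial UMIs.

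UMIs were summed per cluster and library (Python 3.11.15, scipy 1.17.1) and scaled to the compartment's total. Log2 ratios had 0.5 added to each count and needed 20 UMIs over both libraries. Clusters were named from marker genes: at least 3 raised 2-fold with 20 CPM added, and at least 1 among the 10 leading genes; a cluster led by genes of another type stayed unnamed. Thinning to 1000 UMIs used the exact hypergeometric expectation. Code was tested on simulated data.

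The members, lists and thresholds were chosen with earlier results of these data known. Named genes were the 5 highest and 5 lowest members per compartment, the 3 highest and lowest per other list, the D-type cyclins, Cdkn1a and Cdkn1b, the 5 highest and lowest shares in cluster 10 and 10 genes outside the lists; members described by role were named besides. A cell was lymphoid when at least 0.2 of its lineage-marker UMIs were lymphoid. The rule first planned, more UMIs of one list, called only 29.2% of chow and 77.9% of ketogenic ILC2-like cells lymphoid (93.8% and 99.2% by the share), so it was replaced after the values were seen. Similarity to other clusters was a multinomial likelihood over 12515 genes; immunoglobulin genes were left out after a first run placed few B and plasma-like cells correctly. It recalled 91.9% of 4842 held-out cells, from 71.2% in cluster 7, 82.5% in cluster 2 and 83.2% in cluster 4 to 99.7% in cluster 6. The held-out cells came from clusters other than 10, so recall among cycling cells is not known. Scrublet (scanpy 1.11.5) marked 6 and 2 cells, too few to have worked, so no doublets were removed. Alternatives changed the cells, genes, free RNA, scaling, count minimum, thresholds and promoter window.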

Additional observations from a re-analysis of the deposited data

Results flagged for a closer look

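Cells that the deposited clusters leave out also carried mitotic transcripts. There were 87 such cells in the chow library and 55 in the ketogenic library, all with more than 5% mitochondrial UMIs. After thinning to 1000 UMIs, with the expected number rounded to whole cells, 8.05% [3.30 to 15.9] of the chow and 5.45% [1.14 to 15.1] of the ketogenic cells had at least 3 mitotic UMIs, above the 0.139% and 0.259% in clusters other than 10. The intervals overlap those of mature DC-like cells, 0% [0 to 5.96] and 2.04% [0.0517 to 10.9]. The unclustered cells were noted because no comparison of the report uses these cells. Without thinning 14 and 9 cells had at least 3, holding 84.3% and 79.6% of the mitotic UMIs of the unclustered cells, with medians of 2962.5 and 3375 UMIs per cell. By their lineage markers 6 and 6 of them were lymphoid and 8 and 3 antigen-presenting. The S-phase sum of all unclustered cells was 954 and 957 CPM and the mitotic sum 688 and 558 CPM.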

How the results depend on the processing

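No paired analysis was possible because each diet has 1 library, and no library could be left out for the same reason. Of the values recomputed, 202 stayed in the counting interval of the reported value or near its count, 114 moved and 2 reversed. The reversals came without the cell with most mitotic UMIs of each library: the diet ratio of the mitotic sum was 1.23 in cluster 7 (0.548 with it) and 0.767 in cluster 12 (3.18 with it). The S-phase to mitotic ratios of cluster 12, counted for each library apart, also changed order, from 2.48 (chow) and 1.11 (ketogenic) to 2.67 and 3.64. Other diet ratios of sums and shares that crossed 1 did so from a reported interval that included 1 or, for the weighted sums, from a value with no interval: the lymphoid S-phase sum in cluster 10 (0.987 as a mean of per-cell CPM, 0.986 with lineage by more UMIs, 0.941 below), the weighted sums outside it without the 6 genes named below (1.04 for S phase, 0.963 for mitosis), and the cycling shares given below. Without each member's own top cell 3 members passed 2-fold in lymphoid cells of cluster 10, against 0. Leaving out cells with at least 3 UMIs of both lineage lists left 51 of 142 and 22 of 154 cells of cluster 10, among them 1 and 2 lymphoid cells, so its values say little: a ketogenic S-phase to mitotic ratio of 0.935 in cluster 10, 2.33 and 1.93 outside it, diet ratios of the mitotic sum of 0.777 (cluster 10), 0.822 (lymphoid), 0.765 (antigen-presenting) and 1.36 (outside), diet ratios of the S-phase sum of 1.43 (antigen-presenting) and 1.12 (outside), and 0.589% of ketogenic cells outside with mitotic UMIs. Subtracting 10% free RNA gave S-phase to mitotic ratios outside of 4.08 and 3.56 and a mitotic diet ratio of 1.43. Without Pcna, Dut, Mcm6, Cenpa, Top2a and Birc5 the ratio was 0.601 and 0.866 in cluster 10 and 2.68 and 2.74 outside, and the S-phase diet ratio outside 1.33. Means of per-cell CPM gave S-phase diet ratios of 1.33 (cluster 10) and 1.15 (outside), 1.06 for the mitotic sum outside, and 1 member past 2-fold in cluster 10, in its antigen-presenting cells and outside. Without mitochondrial and ribosomal protein genes the S-phase diet ratio outside was 1.30. In lymphoid cells called by 3 times as many UMIs it was 0.941, on the other side of 1 from the reported 1.03. The share of cycling lymphoid cells had a diet ratio of 0.979 with the same minimum of 2048 UMIs per cell in both libraries, against 1.27, and 0.958 when cycling cells were defined by 3 mitotic UMIs (antigen-presenting 0.889, cluster 8 1.20); under these settings in turn NK-like cells had 2.10 and 3.35, ILC2-like 0.320 and 0.219 and cDC1-like 0.639 and 0.486. These settings, those without a top cell, and those that move cluster 9 were chosen after seeing the data. The share of cells of cluster 10 with mitotic UMIs was 82.7% and 72.5% at 2 UMIs, 41.2% and 39.2% at 5, 83.5% and 71.6% when thinned to 1500, and 99.3% and 97.4% unthinned; outside it was 0.652% and 0.842%, 0.0244% and 0.0452%, 0.468% (ketogenic, thinned to 1500), and 2.57% and 2.87%. The cause of these shifts was not tested. Single genes with fewer than 50 UMIs, and groups of under 20 cells, are limited by depth.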
